A study of Mus musculus with 6 samples.

Results

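Of the 40 names listed for ribbon synapse and vesicle release genes, 39 were found among the 22692 gene symbols of each deposited table. The 40th, Pikachurin, is another name of Egflam and was counted once, under that symbol. The members were split into 10 genes listed for their part in ribbon synapses (the ribbon class: Ctbp2, Stx3, Cplx3, Cplx4, Cacna1f, Cacna2d4, Cacnb2, Cabp4, Lrit1 and Egflam) and 29 others. Those 29 are genes of vesicle release and synaptic structure that conventional synapses use as well (the general class). Ribbon terminals also use general class genes such as Bsn and Slc17a7, and Ctbp2 also encodes a transcriptional co-repressor. The classes therefore do not separate ribbon from conventional synapses in whole-eye RNA. All 39 passed the filter on low values, which kept 13490 genes with at least 1 RPKM (reads scaled to the length of the gene and to the depth of the library) in 3 or more libraries.

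The libraries came from whole eyes of C57BL/6J mice, an inbred laboratory strain, and light onset preceded collection by 1.5 h in one group and by 9.0 h in the other. No gene was altered and no agent was given in either group, per the labels. Total RNA of 5 mice, all female and 4 weeks old, was pooled for each library, with 3 libraries per group. Whether the pools held different mice is not said in the labels, so p-values measure only how much these libraries spread, and that spread may be technical in part.

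At a ribbon synapse, as in rods, cones and bipolar cells of the retina, a plate-shaped ribbon holds synaptic vesicles next to calcium channels, and glutamate is released in a sustained way that follows the membrane voltage. Vesicles fuse when the vesicle protein synaptobrevin (Vamp genes) pairs with syntaxin (Stx genes) and Snap25, with complexins and synaptotagmins setting the readiness and calcium dependence of fusion. Amacrine and ganglion cells mostly use conventional synapses, with syntaxin 1 where ribbon terminals carry syntaxin 3, and complexins 1 and 2 where photoreceptor terminals carry complexins 3 and 4.

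Upstream sequence is shown for 4 members, 3 of the ribbon class and the synapsin gene Syn1, because each holds 1 of 3 motifs that were searched. TAATCC is a core bound by photoreceptor homeodomain factors such as CRX, the E-box CACGTG is bound by clock factors among others, and TGACGTCA is the cyclic AMP response element. The sequences are from RefSeq, build GRCm38.p6, and lie upstream of an annotated transcription start, on the strand of the gene. For Lrit1 and Cplx3 the 250 bases up to the start are shown. Because nearer bases are annotated as UTR, the stretches of Syn1 (164 bases) and Ctbp2 (30 bases around the motif) end short of the start. Capitals mark the motif found, on either strand.
Ctbp2 (chr7:133015351-133015380, minus strand, TAATCC as its reverse complement): taaggtttcagaGGATTAataatttaggtc
Lrit1 (chr14:37054580-37054829, plus strand, TAATCC): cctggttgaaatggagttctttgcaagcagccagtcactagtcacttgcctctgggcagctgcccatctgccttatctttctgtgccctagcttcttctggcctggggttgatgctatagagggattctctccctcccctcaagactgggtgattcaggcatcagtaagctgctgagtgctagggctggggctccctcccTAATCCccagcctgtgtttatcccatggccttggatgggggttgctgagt
Cplx3 (chr9:57606282-57606531, minus strand, CACGTG): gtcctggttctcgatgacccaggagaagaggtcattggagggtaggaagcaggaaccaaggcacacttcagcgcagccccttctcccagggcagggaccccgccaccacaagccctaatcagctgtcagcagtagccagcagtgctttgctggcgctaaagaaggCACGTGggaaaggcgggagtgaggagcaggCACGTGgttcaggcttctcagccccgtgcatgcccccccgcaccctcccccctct
Syn1 (chrX:20921005-20921168, minus strand, TGACGTCA): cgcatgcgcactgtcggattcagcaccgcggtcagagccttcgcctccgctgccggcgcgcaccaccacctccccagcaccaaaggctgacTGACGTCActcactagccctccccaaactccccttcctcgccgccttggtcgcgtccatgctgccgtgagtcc

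The motif began 121 bases before the start in Ctbp2, 50 in Lrit1 and 159 in Syn1, and 85 and 55 bases before it in Cplx3. The Ctbp2 start lies inside the gene and is that of a transcript with a reading frame of 988 residues, which fits RIBEYE, the ribbon's main protein, and the 30 bases shown lie in a first exon of shorter annotated Ctbp2 transcripts. The form with 445 residues, the transcriptional co-repressor CtBP2, starts far upstream. The deposited tables have 1 value for Ctbp2, so these products cannot be told apart in them.

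RefSeq windows (300 bases, 250 before to 50 after a start) were found for 33 of the 39 members, 48 windows in all. TAATCC was in 3 of 10 ribbon class windows (Ctbp2, Stx3, Lrit1), in 4 of 38 general class windows (Syp, Sv2b, Dlg4) and in 7.06% of all 32851 windows. CACGTG was in 1 of 10 (Cplx3) and 4 of 38 (Unc13b, Sv2b, Nsf, Napa), against 7.15% of all windows. TGACGTCA was in 0 of 10 and 2 of 38 (Syn1 and Napa), against 1.79%. All were searched on both strands, and a match describes the letters only.

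Reads per library, estimated from the step size of low values, were between 12700000 and 31840000, with 1.5 h replicates 2 and 3 the shallowest. Estimated from the longest annotated transcript, the thinnest member value (Stx1a) rested on about 97 reads and the thinnest library of Snap25 on about 21000. Markers of the labelled tissue were present in every library: the bipolar cell receptor gene Grm6 had 11.7 to 19.1 RPKM, the lens gene Cryaa 17300 to 45200, the corneal keratin gene Krt12 1340 to 2160 and the pigment epithelium gene Rpe65 45.1 to 86.2. Lens markers took 32.3% of all RPKM in 1.5 h replicate 1 and 38.7% to 47.1% in the other 5 libraries. That library was also low in summed skeletal muscle markers (1401 against 2208 to 2643 RPKM) and markers of sclera and corneal stroma (994.1 against 1727 to 2364), and between the times these lists had median log2 fold changes of 0.30 and 0.57, or −0.04 and 0.37 without it. In 1.5 h replicate 3 the Y-linked genes Ddx3y, Uty, Kdm5d and Eif2s3y had 0.126 to 0.78 RPKM, and they were listed at 0 in the other 5, although all pools are labelled female. That library also had 367 RPKM of the haemoglobin gene Beta-s, against 41.9 to 118.

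Comparing 9.0 h with 1.5 h asked whether transcripts of the release machinery differ between early and later day. All 39 members were detected in every library at both times. On the log2 scale the members farthest from 0 were the very long scaffold genes Pclo, Unc13a and Bsn, with changes of −39.1%, −38.0% and −27.5%. On the higher side they were the vesicle tethering genes Rab3a, Syn1 and Syn2, whose values were 29.9% to 37.3% above those at 1.5 h. No member of either class passed limma (Benjamini-Hochberg adjusted p of 0.05 over all 13490 genes), against 0.222% of all genes tested (0.148% higher and 0.0741% lower). Without 1.5 h replicate 1, 2 general class members passed (Pclo lower and Syn2 higher), in a fit in which 663 genes passed as higher and 556 as lower, and without 1.5 h replicate 3 none did. At an unadjusted limma p of 0.05, 4 members were higher and 3 lower (17.9% of 39), against 11.1% of all genes, with 6.47% higher and 4.58% lower. The 2 times did not overlap for 7 members (17.9%), 5 higher and 2 lower, a share near the 18.2% of all genes (9.78% higher and 8.41% lower). By class, 1 of 10 ribbon genes (10.0%) and 6 of 29 general genes (20.7%) had an unadjusted p below the threshold, and 1 and 6 did not overlap.

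The ribbon class had 8 of 10 fold changes below 0, with a median log2 fold change of −0.08 (range −0.37 to 0.23). The general class had 12 of 29 below 0, with a median of 0.03 (range −0.72 to 0.46). Over all genes tested the median was 0.00, with 6826 of 13490 below 0. The ribbon median was −0.12 and −0.11 without 1.5 h replicate 1 and 3, −0.124 without 9.0 h replicate 1 and −0.042 without 9.0 h replicate 3. Rescaling moved it too, to −0.219 after quantile normalization, to −0.156 with lens genes left out of the total, and to 0.06 when each library was centred on its rod, cone, bipolar and amacrine markers, a step that took out a shift of −0.14 in these markers. The general median changed sign with the libraries, from −0.047 without 9.0 h replicate 1 and −0.001 without 1.5 h replicate 2 to 0.054 without 1.5 h replicate 3 and 0.086 without 9.0 h replicate 3. It was −0.051 in the first and second of these 3 scalings and 0.165 in the third. The ribbon median lay 0.10 below the general one on the log2 scale, a gap of −0.161 to −0.07 with a library left out. Shifting all genes of a library alike, or changing the filter or fit, could hardly move this gap. In single libraries, the difference between the class means of log2 deviation had a pooled SD of 0.095 within a time. That is a spread of libraries and not an error of the gap between medians.

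**Figure D1:**
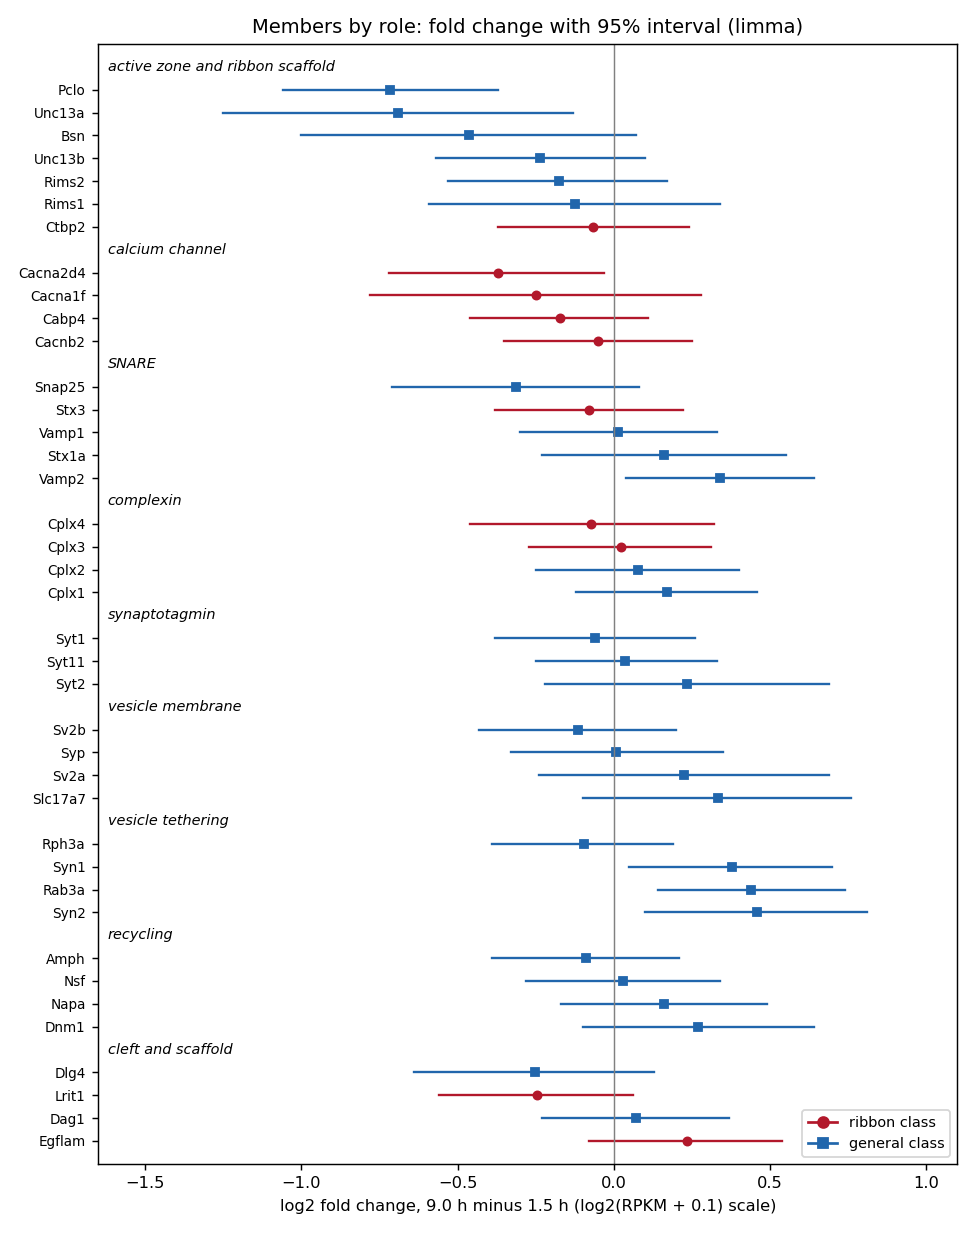
Log2 fold change of each member (9.0 h minus 1.5 h, horizontal axis) with its 95% interval from limma, grouped by role, with circles for the ribbon class and squares for the general class. Intervals of 7 members lie on 1 side of 0, among them Rab3a, Syn1 and Syn2 on the right and Pclo and Unc13a on the left, while all 7 scaffold and all 4 calcium channel members have points left of 0, of which Ctbp2, Rims1 and Cacnb2 move to the right when centred on retinal markers.

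By library, ribbon class genes lay on average 0.12, 0.07 and −0.03 from their 6-library means in the 3 early libraries, and 0.04, −0.12 and −0.08 in the 3 late ones. General class genes lay at 0.09, −0.12 and 0.03, and at 0.13, −0.06 and −0.06. In both classes the times overlapped. Rod markers (25 genes, median log2 fold change −0.20) and bipolar markers (12 genes, −0.21), whose cells hold ribbons, had 19 of 25 and 10 of 12 fold changes below 0. Cone markers, also of cells with ribbons, had 11 of 12 below 0 (median −0.19). Amacrine markers (9 genes, 0.06) had 3 of 9 below 0, ganglion cell markers 6 of 11 (−0.02) and horizontal cell markers 2 of 3 (−0.20). No gene of these lists passed limma. The summed level of bipolar markers was 311.6 to 367.2 RPKM at 1.5 h and 276.4 to 299.7 at 9.0 h, that of rod markers 18910 to 21090 and 17900 to 20060, and that of amacrine markers 359.4 to 374.8 and 374.2 to 409.2, with no marker of these lists at 0 in every library. The part of these markers in the members' values was not tested. In whole-eye RNA, fewer cells of a type and less RNA per cell cannot be told apart.

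**Figure D2:**
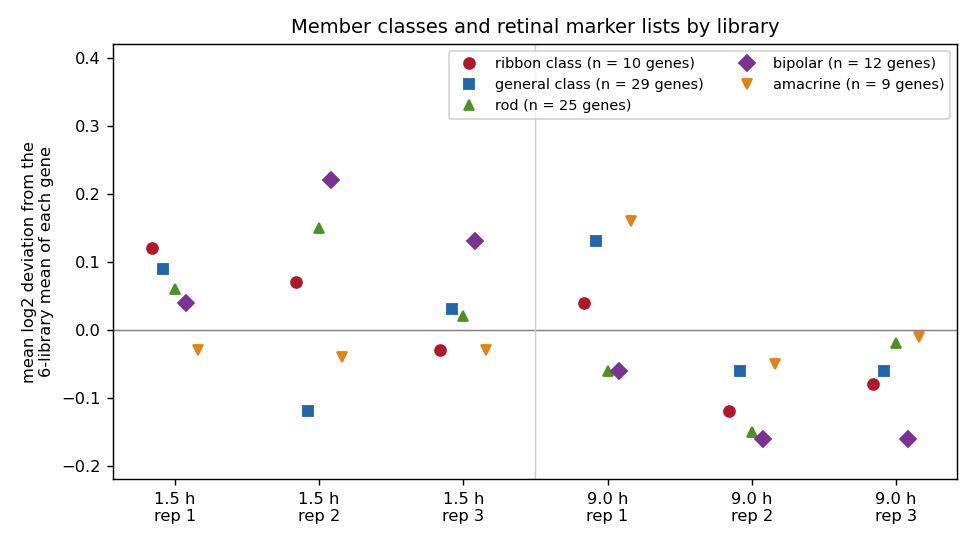
Mean log2 deviation from the 6-library mean (vertical axis) of the genes of each member class and of rod, bipolar and amacrine markers, by library (horizontal axis). Ribbon class points run from 0.12 in 1.5 h replicate 1 to −0.12 in 9.0 h replicate 2, and the general class has its lowest point, −0.12, in 1.5 h replicate 2 and its highest, 0.13, in 9.0 h replicate 1.

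Among the scaffold genes, which build the active zone and the ribbon, all 7 had fold changes below 0, with a median of −0.24 that was −0.12 without 1.5 h replicate 1, but Ctbp2 and Rims1 lay above 0 when centred on retinal markers and Unc13b with GC and length trends removed. Ctbp2, the ribbon's own gene, had 40.9, 34.9 and 37.4 RPKM in the 1.5 h libraries, given here and below in replicate order, and 39.9, 34.2 and 34.1 in those of 9.0 h. Its libraries overlapped, and its log2 fold change was −0.06 with a 95% interval of −0.37 to 0.24 (limma adjusted p = 0.902). The annotated exons of Ctbp2 share up to 210 bases with Fgfr2, a gene on the same strand. Unc13b, a priming factor found at photoreceptor ribbons, had 19.0, 14.6 and 15.2 RPKM and then 15.3, 12.6 and 13.3, overlapping as well.

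Pclo, which encodes the giant active zone protein Piccolo, had 3.23, 3.07 and 2.92 RPKM at 1.5 h and 1.90, 1.85 and 1.74 at 9.0 h. Every 1.5 h library was above every 9.0 h library. The log2 fold change was −0.72 ± 0.16 SE, the smallest adjusted p of the members (limma adjusted p = 0.116). It passed without 1.5 h replicate 1 (−0.68, limma adjusted p = 0.0139), and over all alternatives its adjusted p lay between 0.0139 and 0.662. With trends in GC content and transcript length removed it was −0.28 (limma adjusted p = 0.252). Its exons share up to 496 bases with an antisense gene, Gm26954, and strand use in counting is not given in the sources used here.

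Unc13a, the main vesicle priming factor of conventional synapses, had 10.5, 4.68 and 7.00 RPKM at 1.5 h and 4.98, 3.79 and 4.23 at 9.0 h. Only 1.5 h replicate 2 reached into the 9.0 h range. The log2 fold change of Unc13a was −0.69 ± 0.25 SE (limma adjusted p = 0.353), and −0.40 without 1.5 h replicate 1. Its exons share up to 495 bases with the neighbouring gene Colgalt1 on the other strand, so part of its reads may belong there.

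Bsn, which encodes Bassoon, the anchor of the ribbon to the active zone, ranged from 2.09 to 4.91 RPKM, with its highest value in 1.5 h replicate 1. Its log2 fold change was −0.46, and −0.18 without that library. The calcium channel tethers Rims1 and Rims2 ranged from 2.49 to 4.35 and from 12.4 to 18.5 RPKM, with log2 fold changes of −0.13 and −0.18. Without 1.5 h replicate 1 these were −0.039 and −0.03, and Rims1 was 0.09 without 9.0 h replicate 3. Rims2, the more abundant of the pair, is the main form at photoreceptor terminals.

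Pclo, Bsn, Unc13b and Unc13a have the longest transcripts of all members: 20084 nt for Pclo, 15938 for Bsn, 14754 for Unc13b and 10255 for Unc13a. Over the 39 members, log2 length of the longest transcript and log2 fold change had r = −0.68, and over 13378 genes with a length r = −0.27. All points of such a correlation share the same 6 libraries, and it is a description. Genes with a transcript of at least 9000 nt, a limit set after the values were seen, numbered 478 and had a median log2 fold change of −0.27, and −0.58 for these 4. With GC and length trends removed the median of the 478 was −0.02. In that setting Unc13a was at −0.54, Pclo at −0.28, Bsn at −0.24 and Unc13b at 0.12. The part of length in the members' values was not tested.

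**Figure D3:**
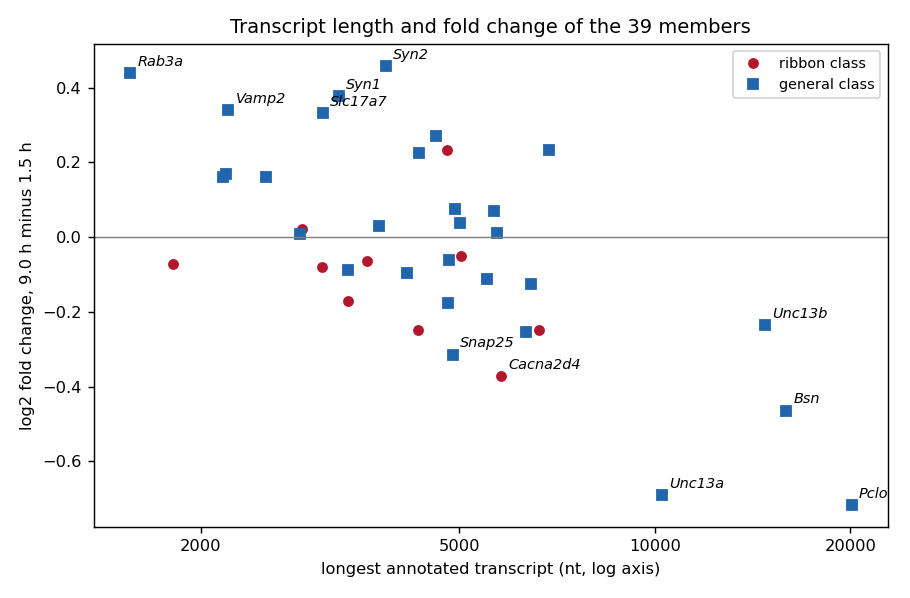
Length of the longest annotated transcript (horizontal axis, nt, log scale) and log2 fold change, 9.0 h minus 1.5 h (vertical axis), for the 39 members, with circles for the ribbon class and squares for the general class. The 4 longest members all lie below 0, with Pclo lowest at −0.72, and Rab3a, at 1556 nt, lies at 0.44.

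Calcium entry at photoreceptor terminals runs through a channel with the pore subunit Cacna1f, the auxiliary subunits Cacna2d4 and Cacnb2, and the regulator Cabp4, and defects of Cacna1f and Cabp4 cause inherited night blindness. All 4 had fold changes below 0, with a median log2 value of −0.21 that was −0.13 without 1.5 h replicate 1 and −0.32 without 1.5 h replicate 3, though Cacnb2 lay above 0 when centred on retinal markers. Cacna2d4 had 36.0, 29.8 and 25.8 RPKM at 1.5 h and 25.8, 21.7 and 22.7 at 9.0 h, so that the groups met at 1.5 h replicate 3. Cacna2d4 had a log2 fold change of −0.37 ± 0.16 SE (limma adjusted p = 0.409), and −0.25 without 1.5 h replicate 1.

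Cabp4 had 60.2, 59.4 and 56.1 RPKM at 1.5 h and 52.0, 48.99 and 55.1 at 9.0 h. The times did not overlap, by a narrow margin, and the log2 fold change was −0.17 (95% interval −0.46 to 0.11, limma adjusted p = 0.682). Cacna1f had 33.4, 18.1 and 16.5 RPKM and then 19.6, 15.7 and 19.3. Its log2 fold change of −0.25 rested on 1.5 h replicate 1, and was 0.065 without that library. Cacnb2 ranged from 16.0 to 19.6 RPKM, with a log2 fold change of −0.05.

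Of the SNARE genes, which form the fusion complex, Vamp2 was the one that separated. It had 178, 186 and 198 RPKM at 1.5 h and 238, 241 and 233 at 9.0 h. All 9.0 h libraries were above all 1.5 h libraries, and the spread within a time was small. The log2 fold change was 0.34 ± 0.14 SE (limma adjusted p = 0.398), and 0.157 after quantile normalization.

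Snap25 had 289, 435 and 335 RPKM at 1.5 h and 270, 305 and 266 at 9.0 h. Replicate 2 was the highest library at each time, the groups overlapped, and the log2 fold change of −0.31 (limma adjusted p = 0.563) had a 95% interval of −0.71 to 0.08 and was −0.154 without 1.5 h replicate 2. Stx3, the ribbon syntaxin, ranged from 78.3 to 92.1 RPKM, with a log2 fold change of −0.08. Stx1a ranged from 3.52 to 5.24 RPKM (0.16, and 0.046 without 1.5 h replicate 2) and Vamp1 from 16.4 to 20.5 RPKM (0.01).

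The ribbon complexins Cplx4 and Cplx3, clamps of the fusion complex, were the most abundant of their family. Cplx3 had 88.5, 89.4 and 92.1 RPKM at 1.5 h and 94.0, 85.7 and 94.9 at 9.0 h. Its mean was 90.0 ± 1.90 (SD, n = 3) and then 91.5 ± 5.07 RPKM. The log2 fold change of Cplx3, 0.02 (95% interval −0.27 to 0.31), was the nearest to 0 of the ribbon genes in the main fit. That rank depended on the scaling. Cplx3 was at −0.113 after quantile normalization, where Cacnb2 was at −0.072, and at 0.158 centred on retinal markers, where Cabp4 was at −0.036. Cplx4 had 144, 219 and 158 RPKM and then 165, 171 and 151.

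The high value in 1.5 h replicate 2 set the wide spread of Cplx4, and its 95% interval was −0.46 to 0.32. Cplx1 had 35.7, 39.01 and 42.4 RPKM at 1.5 h and 45.8, 42.6 and 43.1 at 9.0 h, which just failed to overlap. Its log2 fold change was 0.17 (limma adjusted p = 0.693), and 0.107 without 1.5 h replicate 1. Cplx2 ranged from 22.5 to 30.4 RPKM, with a log2 fold change of 0.08.

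Of the synaptotagmins, Syt1, the main calcium sensor for fast release, had 91.7, 105 and 102 RPKM at 1.5 h and 103, 98.0 and 85.1 at 9.0 h. Syt11, a form without calcium binding, had 34.5, 38.2 and 38.4 and then 40.9, 37.7 and 35.4. The groups overlapped in each case, with 95% intervals of −0.38 to 0.26 and −0.25 to 0.33. Syt2, another fast sensor, was the member with the lowest mean level, at 1.62 to 2.89 RPKM and a log2 fold change of 0.23, or 0.035 without 1.5 h replicate 2.

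Genes of the vesicle membrane differed widely in level. Slc17a7, the vesicular glutamate transporter of rods, cones and bipolar cells, had the highest mean of all members, with 344, 221 and 334 RPKM at 1.5 h and 408, 335 and 370 at 9.0 h. Only 1.5 h replicate 1 lay within the 9.0 h range, and replicate 2 was lowest at each time. The log2 fold change was 0.33 ± 0.19 SE (limma adjusted p = 0.579), and 0.13 without 1.5 h replicate 2.

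Syp, which encodes the vesicle protein synaptophysin, had 163, 192 and 194 RPKM at 1.5 h and 202, 164 and 186 at 9.0 h, with a 95% interval of −0.33 to 0.35. It shares up to 875 exon bases with an antisense gene, Gm14703. The vesicle glycoproteins Sv2a and Sv2b ranged from 31.9 to 63.0 and from 39.5 to 50.3 RPKM, with log2 fold changes of 0.23 and −0.11. Sv2a was at −0.001 without 1.5 h replicate 2.

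Among tethering genes, which hold vesicles in the reserve pool or dock them, 3 of 4 were higher in every 9.0 h library than in any 1.5 h library, against 9.78% of all genes. Of all roles this one had the largest such share, and the members were chosen with earlier results of these data known. Over all 39 members 5 were higher in this way, and 17.9% did not overlap in either direction, near the 18.2% of all genes. The share in this role is thus a description only. Rab3a, a small GTPase of synaptic vesicles, had 122, 136 and 135 RPKM at 1.5 h and 176, 174 and 183 at 9.0 h. Rab3a thus separated by time, with a log2 fold change of 0.44 ± 0.14 SE (limma adjusted p = 0.269). Over the 16 alternatives this fold change ranged from 0.282 after quantile normalization to 0.574 when centred on retinal markers. Those of filter, fit and block cannot change it.

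Syn1, which encodes synapsin I, a vesicle clustering protein of conventional terminals that ribbon terminals largely lack, had 13.4, 15.8 and 18.2 RPKM at 1.5 h. It had 20.9, 21.4 and 18.9 RPKM at 9.0 h, and the nearest libraries of the 2 times almost met. The log2 fold change was 0.38 ± 0.15 SE (limma adjusted p = 0.382). Syn2, its paralog, had 4.71, 3.64 and 4.21 and then 6.52, 5.58 and 5.24 RPKM.

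Every 9.0 h value of Syn2 was above every 1.5 h value, and the log2 fold change was 0.46 ± 0.16 SE (limma adjusted p = 0.332). It passed without 1.5 h replicate 1 (0.54, limma adjusted p = 0.0246), and over all alternatives its adjusted p lay between 0.0246 and 0.819. Rph3a, which encodes the Rab3 effector rabphilin, had 25.9, 27.6 and 27.3 RPKM at 1.5 h and 27.8, 24.9 and 23.0 at 9.0 h. It did not share the direction of the other tethering genes, with a log2 fold change of −0.10 (95% interval −0.39 to 0.19). The median of the 4 tethering genes was 0.41, and 0.29 with GC and length trends removed.

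**Figure D4:**
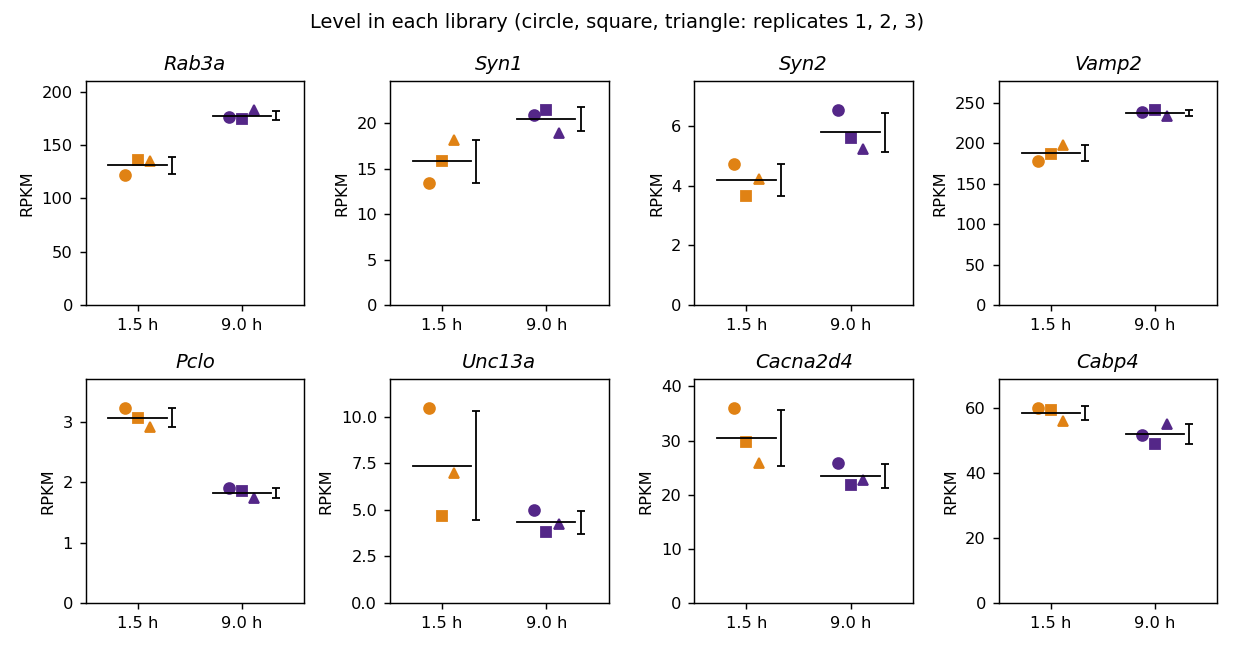
RPKM (vertical axis of each panel, starting at 0) in each library of 1.5 h and 9.0 h for 8 members, with circles, squares and triangles for replicates 1, 2 and 3, a line at the mean of each time and a bracket of 1 SD to each side. In the panels of Rab3a, Syn1, Syn2 and Vamp2 all 9.0 h points lie above all 1.5 h points, in those of Pclo and Cabp4 they lie below them, and in those of Unc13a and Cacna2d4 they overlap.

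The recycling genes take the fusion complex apart or recover membrane. Nsf, the ATPase that separates used fusion complexes, had 93.7, 96.9 and 90.0 RPKM at 1.5 h and 106, 93.2 and 87.9 at 9.0 h. Its adaptor Napa had 56.5, 74.3 and 65.9 and then 72.8, 67.7 and 78.7. The times overlapped for each, with 95% intervals of −0.28 to 0.34 and −0.17 to 0.49. Dnm1, the GTPase that pinches off vesicles, ranged from 51.6 to 81.2 RPKM, with a log2 fold change of 0.27, or 0.147 without 1.5 h replicate 2. Amph, its partner amphiphysin, ranged from 37.6 to 46.8 RPKM, with a log2 fold change of −0.09.

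None of the 4 genes of the synaptic cleft and of scaffolds near it separated by time. Lrit1, a transmembrane protein of photoreceptor synapses, had 50.8, 48.4 and 45.0 RPKM at 1.5 h and 46.2, 39.01 and 36.7 at 9.0 h. Only 9.0 h replicate 1 reached into the 1.5 h range, and the log2 fold change was −0.25 (95% interval −0.56 to 0.06, limma adjusted p = 0.564). Dlg4, which encodes the scaffold PSD-95, had 92.2, 60.1 and 76.5 and then 68.1, 57.1 and 64.3 RPKM.

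The values of Dlg4 overlapped, with a log2 fold change of −0.25 and a 95% interval of −0.64 to 0.13, and the fold change was −0.105 without 1.5 h replicate 1 and −0.414 without 1.5 h replicate 2. Egflam encodes pikachurin, a cleft protein that binds dystroglycan at ribbon synapses, and ranged from 19.4 to 27.0 RPKM. It was the ribbon gene with the highest log2 fold change, 0.23 (95% interval −0.08 to 0.54), or 0.144 without 9.0 h replicate 1. Dag1, which encodes dystroglycan, ranged from 22.6 to 29.0 RPKM, with a log2 fold change of 0.07.

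The balance between related members was compared within each library for 6 ratios, all from RPKM, which is per gene length. Only the syntaxin and complexin ratios set ribbon class against general class genes, and the others were within the general class. Stx3 was 15.6, 25.4 and 20.2 times Stx1a at 1.5 h and 14.8, 20.3 and 16.2 times at 9.0 h. Cplx3 and Cplx4 together were 3.78, 5.00 and 3.69 times Cplx1 and Cplx2 together, and then 3.40, 3.90 and 3.64 times. In whole-eye RNA the ribbon forms were thus the more abundant in every library. The log2 ratios differed between the times by −0.24 and −0.18, with an exact two-sided permutation p of 0.5 and 0.4. Without 1.5 h replicate 2 they were −0.068 and −0.037, and the syntaxin ratio ranged up to −0.421 without 1.5 h replicate 1.

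Vamp1, the lesser synaptobrevin here, was 0.115, 0.0887 and 0.0892 of Vamp2 at 1.5 h and 0.0842, 0.0759 and 0.0722 at 9.0 h. These did not overlap, and the log2 difference of −0.33 had an exact permutation p of 0.1, the smallest that 3 against 3 libraries allow, or 0.4 adjusted over the 6 ratios (Benjamini-Hochberg). Without 1.5 h replicate 1 it was −0.20. The ratio of Unc13b to Unc13a was 1.81, 3.08 and 2.15 and then 3.04, 3.27 and 3.10, with an exact permutation p of 0.2.

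For Unc13b to Unc13a the log2 difference was 0.45, and 0.284 without 1.5 h replicate 1. Syt2 to Syt1 and Sv2b to Sv2a differed by 0.30 and −0.34 on the log2 scale, with overlapping libraries and an exact permutation p of 0.4 and 0.2. Without 1.5 h replicate 2 these were 0.055 and −0.156, and Syt2 to Syt1 was 0.497 without 1.5 h replicate 1. No ratio passed after adjustment, and with 3 libraries at each time none could have.

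**Figure D5:**
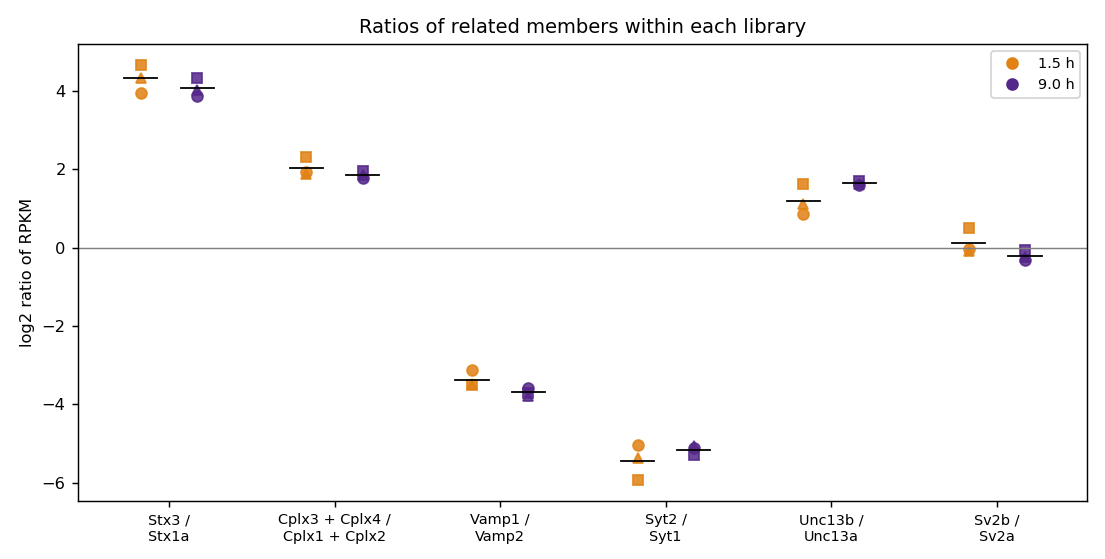
Log2 ratio of RPKM between members of 6 gene pairs or groups (vertical axis) in each library of 1.5 h and 9.0 h, with circles, squares and triangles for replicates 1, 2 and 3 and a line at the mean of each time. Stx3 to Stx1a and Cplx3 with Cplx4 to Cplx1 with Cplx2 lie above 0 in every library and overlap between times, and Vamp1 to Vamp2 has all 9.0 h points below all 1.5 h points.

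Other genes of the presynaptic terminal, with partners such as the neuroligin genes Nlgn1 and Nlgn3, made a list of 141. Of these, 131 were tested. None passed limma over all genes, 9 were higher and 4 lower at an unadjusted p of 0.05 (9.92%, against 11.1% of all genes), and the median log2 fold change was −0.07, from −0.102 to −0.032 with a library left out. Ap2m1, a subunit of the adaptor that recovers vesicle membrane by clathrin, had 19.4, 16.6 and 16.5 RPKM at 1.5 h and 29.3, 27.5 and 27.0 at 9.0 h. The groups stood well apart, with a log2 fold change of 0.68 ± 0.13 SE (limma adjusted p = 0.0792). Hspa8, the chaperone that strips clathrin coats, had 67.8, 74.8 and 65.4 and then 113, 107 and 102 RPKM (0.63, limma adjusted p = 0.105).

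Ap2m1 and Hspa8 have near-identical copies, 99.7% over 1308 nt for Ap2m1 and Gm13509 and 99.7% over 1941 nt for Hspa8 and Gm15459, so their values are uncertain. Slc18a3, the vesicular acetylcholine transporter of starburst amacrine cells, had 2.91, 2.37 and 2.73 RPKM and then 4.55, 4.24 and 4.93. Its libraries did not overlap, and the log2 fold change was 0.76 ± 0.16 SE (limma adjusted p = 0.0983). Epn1, an endocytic adaptor, had 62.6, 40.5 and 56.2 and then 76.3, 70.1 and 77.8 RPKM (0.51, limma adjusted p = 0.306).

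On the lower side, Rab3c, a relative of Rab3a, had 6.36, 6.17 and 5.70 RPKM at 1.5 h and 4.41, 4.46 and 4.13 at 9.0 h. This is the opposite direction to Rab3a, at a much lower level, with a log2 fold change of −0.48 ± 0.14 SE (limma adjusted p = 0.241) that was −0.24 with GC and length trends removed. Snap29, a SNARE of internal membranes, had 6.66, 8.07 and 7.10 and then 5.11, 5.64 and 5.44 RPKM (−0.42, limma adjusted p = 0.316). Dlg2, a relative of Dlg4, had 13.1, 14.2 and 13.6 and then 11.4, 11.3 and 10.3 RPKM (−0.30, limma adjusted p = 0.424), and −0.10 with those trends removed.

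Lrit3, a relative of Lrit1 needed to place postsynaptic receptors opposite ribbons, had 9.55, 7.04 and 8.38 RPKM at 1.5 h and 7.12, 4.96 and 5.99 at 9.0 h, with a single pair of libraries overlapping. The log2 fold change of Lrit3 was −0.46 (limma adjusted p = 0.37). Partners of the ribbon synapse as a list of 19 tested genes, among them Lrit3, Rimbp2, Tulp1 and the receptor gene Grm6, had 16 fold changes below 0 and a median of −0.25, which was −0.16 without 1.5 h replicate 1. None passed limma, 2 were lower at an unadjusted p of 0.05 (10.5%, against 11.1% of all genes in either direction and 4.58% lower), and 4 did not overlap (21.1%, against 18.2% and 8.41% lower).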

How the data were processed

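Per the labels' protocols, poly(A) RNA of whole eyes was sequenced from random-primed cDNA. GSNAP, HTSeq and the mouse build mm9 are named in the submitters' processing notes, while versions, annotation, strand use and handling of multiply mapped reads were not given in the sources used here. The deposited tables hold 1 RPKM value per gene symbol and library, which the authors made from their counts. The unit was taken from the values, since 69.4% to 73.1% of low values in a library lay within 0.1 read of a whole number (6.8% to 16.2% at an unused step). Those steps gave the estimated depth, at which 1 RPKM of a 2 kb gene is 25.4 to 63.7 reads, and intervals cover these libraries only.

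Values were tested as log2(RPKM + 0.1) with limma 3.58.1 in R 4.3.3 (trend and robust, two-sided, no block, Benjamini-Hochberg adjustment over 13490 genes), and fold changes are on that scale, which understates low genes. On simulated data with 200 changed genes among 13490, 58% of 2-fold and 97% of 4-fold changes were recovered. The simulated noise was independent between genes, so it lacked shifts shared by many genes of a library. Every member changed by less than 2-fold, so these rates do not give the recovery of changes of the members' size. Transcript lengths and overlaps are from GENCODE M21 (GRCm38), and copies were sought with minimap2 2.31. The members and lists were chosen with earlier results of these data known. Values in every library are given for members with an unadjusted p under 0.05, members whose times do not overlap and the 2 most abundant of each role, and Cacna1f was added after its values were seen. Of other presynaptic genes, up to 4 in each direction with the smallest p were named. Alternatives covered pseudocount, filter, scaling, fit, replicate block, GC and length, and leaving out each library.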

Additional observations from a re-analysis of the deposited data

How the results depend on the processing

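Over 16 alternatives for each of 39 members, 579 of 624 results kept their direction and side of the threshold, 43 reversed and 2 passed (Pclo and Syn2 without 1.5 h replicate 1). Changes of filter, fit and block leave the fold changes as they are, so there only the side of the threshold could move. In all, 20 members never reversed, Pclo, Rab3a, Syn1, Syn2 and Vamp2 among them. The gap between the class medians (−0.105) was −0.168 after quantile normalization and −0.178 with GC and length trends removed. With a library left out it was −0.161 to −0.07. The other alternatives change all genes of a library alike, or only the filter, fit or pseudocount, and could hardly move it. No ribbon gene passed in any alternative. The limits are 3 pools a time, libraries of unequal lens content, 1 pool at odds with its sex label and a count method known only in part.

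Genes passing as higher numbered 20, and 10 after quantile normalization, 9 with median-of-ratios scaling, 57 centred on retinal markers, 11 without trend and robust fitting and 64 with GC and length trends removed, and 0 to 663 with a library left out. Genes passing as lower numbered 10, and 6 at a pseudocount of 0.01, 5 after quantile normalization, 6 with median-of-ratios scaling, 18 with a total free of lens genes and 33 with GC and length trends removed, and 2 to 556 with a library left out.

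The ribbon median (−0.076) was −0.219 after quantile normalization, −0.156 with a lens-free total and 0.06 when centred. The general median (0.029) was 0.165 when centred. The median of other presynaptic genes (−0.065) was −0.145 with a lens-free total and 0.07 when centred. General members passing numbered 0 to 2 with a library left out. Other presynaptic genes passing numbered 2 when centred (Hspa8, Ap2m1), 3 with GC and length trends removed (those and Slc18a3), and 0 to 11 with a library left out, the 11 without 1.5 h replicate 1. The cause of these changes was not tested.

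Deviations of same-numbered libraries of the 2 times had r of 0.347, 0.484 and −0.215, and those of other pairs ranged from −0.539 to 0.225. With 3 libraries at each time, these values cannot decide whether the numbers pair the libraries. With the replicate block, 87 genes were higher and 54 lower, no member passed, and 2 other presynaptic genes did (Ap2m1 and Slc18a3). The members nearest the threshold there were Pclo (limma adjusted p = 0.0566) and Unc13a (limma adjusted p = 0.0616).

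Centred on retinal markers, the log2 fold change reversed to 0.071 for Ctbp2, 0.01 for Rims1, 0.085 for Cacnb2, 0.056 for Stx3, 0.063 for Cplx4, 0.074 for Syt1, 0.022 for Sv2b, 0.04 for Rph3a and 0.048 for Amph. With GC and length trends removed it was 0.121 for Unc13b, 0.083 for Cacnb2, −0.036 for Cplx3 and 0.006 for Syt1. After quantile normalization it was −0.02 for Vamp1, −0.113 for Cplx3, −0.051 for Syt11, −0.168 for Syp and −0.108 for Nsf. With a lens-free total it was −0.068 for Vamp1, −0.004 for Cplx2, −0.058 for Cplx3, −0.043 for Syt11, −0.072 for Syp, −0.051 for Nsf and −0.01 for Dag1.

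With a library left out, the range was −0.302 to 0.09 for Rims1, −0.441 to 0.065 for Cacna1f, −0.115 to 0.026 for Cacnb2, −0.056 to 0.101 for Vamp1, −0.041 to 0.154 for Cplx2, −0.004 to 0.069 for Cplx3 and −0.194 to 0.106 for Cplx4. It was −0.121 to 0.019 for Syt1, −0.017 to 0.086 for Syt11, −0.074 to 0.089 for Syp, −0.001 to 0.363 for Sv2a, −0.047 to 0.088 for Nsf and −0.006 to 0.128 for Dag1.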
